A study of Mus musculus with 6 samples.

Results

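The 10 genes described here are the subunits of the hypoxia-inducible factors (HIFs), the enzymes and the ubiquitin ligase subunit that limit them, and Ndufa4l2, in cultured mouse stromal cells given irisin. They were selected by symbol from a table of 55011 genes and are Hif1a, Epas1, Hif3a, Arnt, Egln1, Egln2, Egln3, Hif1an, Vhl and Ndufa4l2. Ndufa4l2 was chosen for its rise in the comparison below, so its values are a description with no test. The other 9 were chosen by family, with results of the same comparison known, and their adjusted p-values are given as a description as well.

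HIFs are transcription factors made of an oxygen-regulated α subunit, encoded by Hif1a, Epas1 or Hif3a, and the stable β subunit encoded by Arnt. When oxygen is present, the prolyl hydroxylases encoded by Egln1, Egln2 and Egln3 mark the α subunit, the product of Vhl recruits it for degradation, and the asparaginyl hydroxylase encoded by Hif1an blocks its transactivation domain. HIFs bind DNA at a short core, ACGTG or GCGTG, near genes of glycolysis, angiogenesis, iron handling and mitochondrial remodelling, among them Egln3 and Ndufa4l2. These steps act largely on the α protein, whereas the libraries count messenger RNA, so neither HIF protein nor its hydroxylation was measured.

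Polyadenylated RNA was counted in 3 libraries of irisin-treated cells and in 3 libraries of cells given phosphate-buffered saline (PBS). All 6 came from stromal cells of mouse visceral fat, which the design text places in the eWAT depot, with the genotype label Il33-EGFP- (no EGFP signal from the Il33 reporter). The irisin group received 10 nM irisin/HSP90α and the PBS group PBS, both for 3 days in culture, and the labels leave it unstated whether HSP90α was in the PBS wells too. Strain, sex, age, oxygen level and the number of animals are not given in the labels. Nothing says that the replicates came from separate cultures or animals, so p-values measure only the spread between these libraries, which may be technical.

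The libraries held 5360724 to 6588363 counts in irisin and 5271309 to 6745799 in PBS. On the first principal component, which carried 48.5% of the variance, the groups separated, and on the second (24.5%) irisin replicate 1 and PBS replicate 3 stood apart from the other 4. All 8 fat stromal markers passed the filter on low counts, and their summed level, mostly that of Col3a1 and Col1a1, was 43648 to 47767 CPM in irisin (counts scaled to the size of the library) and 32046 to 38483 CPM in PBS. Of the 8, 2 were higher in irisin (Pdgfra and Col1a1) and 2 lower (Lum at a log2 fold change of -0.76 and Dpt at -0.91). Summed adipocyte markers ran from 146 to 201 CPM in irisin, against 657 to 1098 CPM in PBS. All 6 tested members were lower, and Lep was at 0 in every library. Of the 6, Cidec exceeded the filter's level in 0 irisin and 3 PBS libraries, so it entered the test through PBS, where it is high. Among all genes tested, 4.2% were higher and 3.22% lower in irisin. Mitochondrial genes took 0.846% to 0.916% of counts in irisin and 0.847% to 0.905% in PBS. The part of the adipocyte shift in the results below was not tested, and in bulk RNA a change in the number of cells of a type and a change in RNA per cell cannot be told apart.

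Promoter stretches are shown for Hif1a and Egln3, because both were higher in irisin and carry the HIF core in the 250 bases before their RefSeq start site (build GRCm38.p6). Letters of a core on either strand are in capitals. The Hif1a stretch is chr12:73907617-73907866 on the plus strand, which lies inside the longer GENCODE gene but overlaps none of its exons, and the Egln3 stretch is chr12:54203875-54204124 on the minus strand.
Hif1a: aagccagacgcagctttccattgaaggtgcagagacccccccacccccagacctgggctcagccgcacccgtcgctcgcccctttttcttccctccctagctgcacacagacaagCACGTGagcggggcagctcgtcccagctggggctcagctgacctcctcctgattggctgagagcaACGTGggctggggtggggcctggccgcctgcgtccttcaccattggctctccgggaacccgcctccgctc
Egln3: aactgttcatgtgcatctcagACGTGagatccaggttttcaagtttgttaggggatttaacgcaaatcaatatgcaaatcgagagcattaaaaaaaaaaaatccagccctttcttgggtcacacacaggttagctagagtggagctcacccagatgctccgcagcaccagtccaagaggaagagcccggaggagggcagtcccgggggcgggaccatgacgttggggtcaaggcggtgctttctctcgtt
In the Hif1a stretch the first block of capitals is a palindrome that reads as ACGTG on both strands, from 135 to 130 bases before the start, and a further ACGTG lies 70 to 66 bases before it. Egln3 has 1 ACGTG, from 229 to 225 bases before its start. In windows of 300 bases around all 32851 RefSeq promoters, ACGTG occurred in 19.6%, GCGTG in 32.4% and either of them in 43.8%. RefSeq promoters were matched for 8 of the 10 genes. Of the others matched, Egln2, which did not pass the test below, held the most cores. Counted on either strand, 1 of its windows had 3 ACGTG and 3 GCGTG, and the other had 1 GCGTG. The Egln1 window held 1 ACGTG and 1 GCGTG, that of Hif3a 2 GCGTG, that of Arnt 1 GCGTG, and those of Hif1an and Vhl none in these letters. Epas1 and Ndufa4l2 were not matched. A match is a description of the letters, not a binding site.

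Irisin was compared with PBS in edgeR's quasi-likelihood test, with p-values adjusted over the 12296 genes that passed the filter. Of these, 7.42% were called at an adjusted p of 0.05, 4.2% as higher and 3.22% as lower. Besides Ndufa4l2, for which no call is counted, 8 of the other 9 genes passed the filter. Of these, 3 were higher in irisin (Hif1a, Epas1 and Egln3), 0 were lower, and 5 did not pass the test. None of them was lower at an unadjusted p under 0.05 either (0 of 8), nor by DESeq2 or limma-voom. For 5 of the 8 genes the groups did not overlap in any library, against 23.6% of all genes tested. These shares are not read as a result, because the genes were chosen with this comparison known. The entry of Egln3 into the test depended on its irisin libraries, as described below.

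All 10 genes are protein-coding in GENCODE M21 (build GRCm38). The α subunit genes lie at chr12:73901375-73947530 (Hif1a, plus strand), chr17:86753700-86833410 (Epas1, plus) and chr7:17031507-17062427 (Hif3a, minus), and Arnt at chr3:95434388-95497240 (plus). The hydroxylase genes lie at chr8:124908587-124949324 (Egln1, minus), chr7:27158658-27166802 (Egln2, minus), chr12:54178981-54203860 (Egln3, minus) and chr19:44562850-44576274 (Hif1an, plus), and Vhl at chr6:113623959-113631633 (plus).

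**Figure D1:**
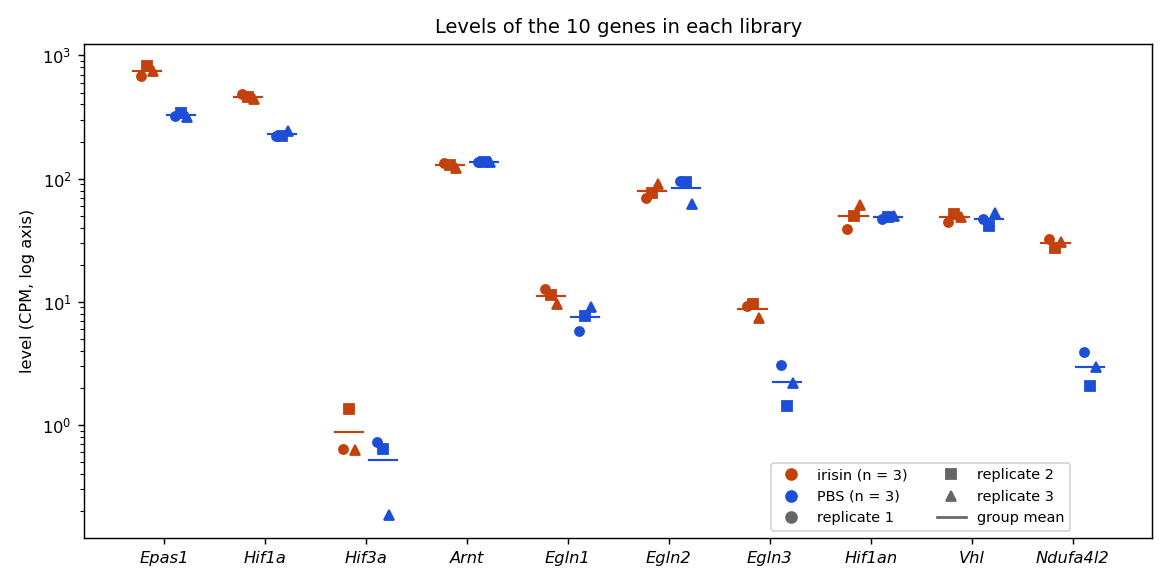
Level of each of the 10 genes in each library, in CPM on a log axis. Irisin libraries are orange and PBS libraries blue, symbols mark the replicate number and bars the group mean of 3. Epas1, Hif1a, Egln3, Egln1 and Ndufa4l2 are higher in every irisin library than in any PBS library, and Arnt is slightly lower. The groups of Egln2, Hif1an, Vhl and Hif3a overlap.

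Both major α subunit genes were higher after irisin. Hif1a, which encodes the broadly expressed HIF-1α, had 486, 461 and 441 CPM in irisin replicates 1, 2 and 3, against 222, 221 and 245 CPM in the PBS replicates. Every irisin library was well above every PBS library. The group means were 463 ± 22.4 CPM in irisin and 229 ± 13.5 CPM in PBS (SD, n = 3 each), a 2.02-fold difference (log2 fold change 1.01 ± 0.08 SE, adjusted p = 4.91e-06). Log2 fold changes are irisin over PBS throughout. Exons of Hif1a share 148 bases with Gm49321 on the same strand, which has no row in the count table, and 330 bases with Gm15283 on the opposite strand, which averaged 1.92 CPM in irisin and 1.21 CPM in PBS.

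Epas1 encodes HIF-2α, known for its roles in endothelial cells and erythropoietin control. It had 679.6, 814 and 749 CPM in irisin, against 323, 339 and 318 CPM in PBS. The lowest irisin library was again above the highest PBS library by a wide margin. The means were 748 ± 67.2 CPM in irisin and 327 ± 10.7 CPM in PBS, 2.29-fold apart (log2 fold change 1.19 ± 0.09, adjusted p = 1.87e-06). Hif3a, whose product can act as an inhibitor of the other α subunits, was barely detected, with 4, 7 and 4 counts in irisin and 5, 4 and 1 in PBS, and it did not pass the filter.

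The share of Hif1a in the summed Hif1a and Epas1 level per kilobase of exon was 40.4%, 34.9% and 35.8% in irisin, and 39.4%, 38.2% and 42.2% in PBS. These shares overlap, with means of 37.1 ± 2.93% in irisin and 39.9 ± 2.05% in PBS. The summed level of both genes per kilobase stood at 12.2, 13.9 and 13.7 times that of Arnt in irisin, against 5.60, 5.79 and 5.74 times in PBS. These ratios depend on the exon length used. With the longest transcript of each gene they averaged 7.89 ± 0.499 in irisin and 3.41 ± 0.0606 in PBS.

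Arnt, the shared β subunit, had 134, 129 and 122 CPM in irisin and 137, 135 and 137 CPM in PBS. All irisin values were slightly below all PBS values, but the difference did not pass the test (log2 fold change -0.09 ± 0.08, adjusted p = 0.668). Arnt2, a related β subunit gene, had 30.7 ± 3.83 CPM in irisin and 23.0 ± 1.12 CPM in PBS and did not pass either (0.41 ± 0.14, adjusted p = 0.102).

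Among the prolyl hydroxylases, Egln3 was called higher, and Egln1 and Egln2 did not pass. Egln3 encodes PHD3, an enzyme that HIFs induce and that in turn hydroxylates α subunits. It had 9.28, 9.66 and 7.38 CPM in irisin, against 3.05, 1.43 and 2.21 CPM in PBS, from 58, 50 and 47 counts in irisin and 21, 9 and 12 in PBS. The groups did not overlap, and the difference was 3.87-fold (log2 fold change 1.95 ± 0.30, adjusted p = 0.000871). It is a low-count gene, with all 3 irisin libraries but only 2 of 3 PBS libraries over the filter's level of 1.59 CPM, which had to be exceeded in 3 libraries. Its PBS libraries alone would not have passed it, so its entry into the test depended on irisin. With no filter its log2 fold change was 1.94 (adjusted p = 3.80e-08). That setting lowered the adjusted p of Hif1a too, to 3.31e-23, so the lower value is not read as added support.

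Egln1 encodes PHD2, the main oxygen sensor of the family. It had 12.6, 11.4 and 9.58 CPM in irisin, against 5.81, 7.61 and 9.02 CPM in PBS. The groups did not overlap, though the lowest irisin and the highest PBS library were close, and the difference missed the threshold (log2 fold change 0.59 ± 0.22, adjusted p = 0.148, unadjusted p = 0.0184). Egln2, which encodes PHD1, had 69.9, 77.1 and 91.1 CPM in irisin and 95.2, 94.0 and 61.7 CPM in PBS. Its groups overlapped (log2 fold change -0.08 ± 0.16, adjusted p = 0.882), and its lowest values were in irisin replicate 1 and PBS replicate 3, the libraries apart on the second principal component. Egln1 was highest within its group in the same libraries.

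Per kilobase of exon, Egln2 made up most of the summed Egln1, Egln2 and Egln3 level, with 78.1%, 80.2% and 85.7% in irisin, against 92.5%, 92.7% and 86.8% in PBS. The Egln3 share was 10.9%, 10.6% and 7.30% in irisin, against 3.11%, 1.48% and 3.27% in PBS. Every irisin library therefore had a larger Egln3 share and a smaller Egln2 share than any PBS library, though for Egln2 replicate 3 of both groups was close. The Egln1 share overlapped between groups (11.0%, 9.24% and 7.02% in irisin, 4.39%, 5.84% and 9.90% in PBS). With the longest transcripts, Egln2 averaged 85.2% in irisin and 92.8% in PBS, and Egln3 averaged 7.58% in irisin and 2.02% in PBS.

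**Figure D2:**
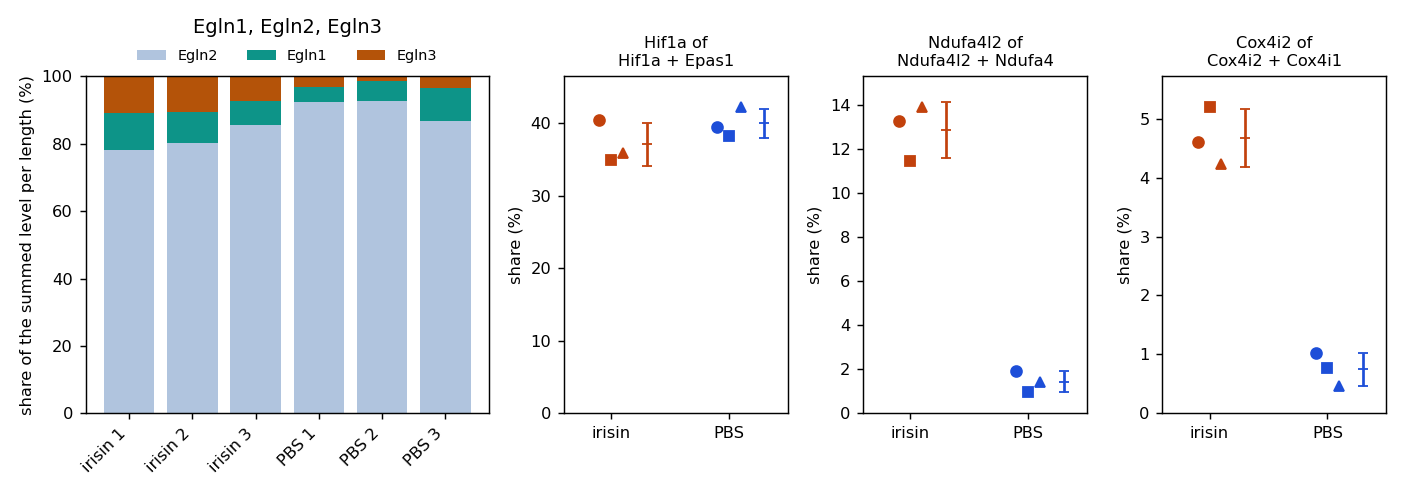
Shares within gene pairs and families in each library, in percent of the summed level per kilobase of exon. The bars split Egln1, Egln2 and Egln3 by library, and the other panels give 3 libraries per group with mean ± SD. The Egln3, Ndufa4l2 and Cox4i2 shares were larger in every irisin library, and the Hif1a share overlapped between groups.

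The asparaginyl hydroxylase gene Hif1an and the ligase gene Vhl did not pass the test. Hif1an had 38.7, 49.3 and 61.1 CPM in irisin, against 47.0, 49.1 and 49.9 CPM in PBS (log2 fold change 0.03 ± 0.15, adjusted p = 0.953). The irisin libraries spanned the whole PBS range. Vhl, the substrate receptor of the ligase, had 44.6, 51.4 and 49.0 CPM in irisin, against 47.3, 41.2 and 52.3 CPM in PBS (0.04 ± 0.12, adjusted p = 0.912), again with overlapping groups.

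A wider list of 24 regulators and partners of HIF, such as the ligase subunit Cul2, the coactivator Ep300, the chaperones Hsp90aa1 and Hsp90ab1, and Mtor, had 23 tested members. In edgeR 0 of them were higher and 0 lower, against 4.2% and 3.22% of all genes tested. Their median log2 fold change was 0.02, with a range from -0.58 to 0.41. At an unadjusted p under 0.05, 1 was higher and 1 lower, and DESeq2 and limma-voom called 0 in either direction. P4htm, a transmembrane prolyl hydroxylase that can act on HIF-α, had 17.6 ± 4.38 CPM in irisin and 17.4 ± 3.31 CPM in PBS (0.02 ± 0.20, adjusted p = 0.971).

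Ndufa4l2 encodes a mitochondrial protein of the NDUFA4 family that HIF-1 induces in low oxygen and that is known to lower respiratory chain activity. It had 32.3, 27.2 and 30.6 CPM in irisin, against 3.92, 2.06 and 2.95 CPM in PBS, from 202, 141 and 195 counts in irisin and 27, 13 and 16 in PBS. All irisin libraries were close together and far above the PBS libraries. The means were 30.1 ± 2.58 CPM in irisin and 2.97 ± 0.93 CPM in PBS, 9.99-fold apart (log2 fold change 3.32 ± 0.21). The gene lies at chr10:127514967-127517154 on the plus strand (GRCm38, GENCODE M21), and 32 bases of its exons overlap Shmt2 on the opposite strand. The strand setting of the counting is not given, and Shmt2 had 166 ± 7.84 CPM in irisin and 141 ± 8.59 CPM in PBS (0.24 ± 0.09, adjusted p = 0.150).

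Its paralog Ndufa4, a constitutive subunit linked to complex IV, had 267, 266 and 239 CPM in irisin and 252, 263 and 259 CPM in PBS (log2 fold change -0.00 ± 0.08, adjusted p = 0.994). The Ndufa4l2 share of the summed Ndufa4 and Ndufa4l2 level per kilobase was 13.2%, 11.5% and 13.9% in irisin, against 1.92%, 0.980% and 1.42% in PBS. AA467197, the mouse counterpart of a further family member, had 1, 0 and 0 counts in irisin and 1, 2 and 1 in PBS, and was not tested.

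Of 16 genes of the Ndufa4 family, nuclear-encoded complex IV and its protease Lonp1, 14 were tested. In edgeR 1 was higher in irisin and 0 were lower, so 7.14% were called, near the 7.42% of all genes tested. At an unadjusted p under 0.05, 1 was lower, and DESeq2 and limma-voom called 0 lower. The gene called was Cox4i2, an isoform of subunit 4 that HIF-1 induces in low oxygen. It had 9.44, 10.2 and 8.01 CPM in irisin, against 1.89, 1.43 and 0.921 CPM in PBS, and the groups were far apart (log2 fold change 2.66 ± 0.30, adjusted p = 7.12e-05). It had 59, 53 and 51 counts in irisin and 13, 9 and 5 in PBS, and only 1 of 3 PBS libraries exceeded the filter's level, so it entered the test through the irisin libraries, where it is high. With no filter its log2 fold change was 2.65 (adjusted p = 3.93e-13). As for Egln3, the lower p of that setting is not read as added support. Cox4i1, the constitutive isoform, had 370.1 ± 14.3 CPM in irisin and 371 ± 18.1 CPM in PBS (adjusted p = 0.989). The Cox4i2 share of the summed Cox4i1 and Cox4i2 level per kilobase was 4.60%, 5.20% and 4.23% in irisin, against 1.02%, 0.771% and 0.460% in PBS. With the longest transcripts in place of all exons, it was 2.49%, 2.83% and 2.29% in irisin and 0.543%, 0.411% and 0.245% in PBS. The other 13 tested genes had log2 fold changes from -0.22 to 0.26.

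Ndufa4l2 and Cox4i2 are also known as pericyte genes, so markers of pericytes and vascular smooth muscle are given beside them. Their summed level was 105, 128 and 150 CPM at the lowest, median and highest irisin library, against 156, 190 and 212 CPM in PBS. Of 10 markers 7 were tested, 0 were higher and 4 were lower in irisin (Abcc9, Cspg4, Des and Vtn), with 0 higher at an unadjusted p under 0.05 too. Among all genes tested, 3.22% were lower. Cspg4 exceeded the filter's level in 2 irisin and 3 PBS libraries, so its entry into the test depended on PBS, where it is high. Rgs5 averaged 0.846 CPM in irisin and 0.835 CPM in PBS, and Higd1b had 0, 0 and 2 counts in irisin and 2, 0 and 1 in PBS. Des made up a large part of the sum, at 33.7 ± 4.25 CPM in irisin and 73.8 ± 8.26 CPM in PBS. Notch3 averaged 39.8 ± 11.4 CPM in irisin and 33.2 ± 7.68 CPM in PBS and did not pass (0.25 ± 0.23, adjusted p = 0.684). The part of pericytes in the Ndufa4l2 and Cox4i2 levels was not tested.

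Over the 6 libraries, Icam1, Serpina3g, Ankrd55 and C1ra were among the genes whose level was most like that of Ndufa4l2. Their Pearson correlations of log2(CPM + 0.5) with it were 0.998, 0.996, 0.996 and 0.996, among 8628 genes that averaged 10 CPM or more. Genes with Gm, Rik or pseudogene symbols were left out of that ranking. The libraries share the split between the groups, so the likeness is a description only.

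Per kilobase of exon, the order of mean levels in irisin was Epas1 (134 ± 12.0 CPM per kilobase), Hif1a (78.5 ± 3.79), Egln2 (28.4 ± 3.85), Ndufa4l2 (27.5 ± 2.36), Vhl (16.1 ± 1.14), Arnt (16.0 ± 0.713), Hif1an (7.52 ± 1.70), Egln3 (3.30 ± 0.458), Egln1 (3.12 ± 0.428) and Hif3a (0.130 ± 0.0618). The neighbours Egln2 and Ndufa4l2, Vhl and Arnt, and Egln3 and Egln1 overlapped in their libraries. In PBS the order was Epas1 (58.4 ± 1.91), Hif1a (38.9 ± 2.29), Egln2 (29.9 ± 6.79), Arnt (17.0 ± 0.118), Vhl (15.7 ± 1.85), Hif1an (7.37 ± 0.225), Ndufa4l2 (2.72 ± 0.849), Egln1 (2.08 ± 0.448), Egln3 (0.837 ± 0.305) and Hif3a (0.0767 ± 0.0432). There Arnt and Vhl overlapped, as did Ndufa4l2 and Egln1. With the longest transcript as length, Arnt (29.6 ± 1.32 in irisin, 31.6 ± 0.219 in PBS) lay wholly above Vhl (17.3 ± 1.23 in irisin, 16.8 ± 1.99 in PBS) and ranked 5 in irisin. Egln2 (37.7 ± 5.12) then lay wholly above Ndufa4l2 (30.3 ± 2.60) in irisin. With that length the irisin libraries of Ndufa4l2 (27.4 to 32.5) overlapped those of Arnt (28.3 to 30.9). By mean level, Ndufa4l2 ranked 4 of 10 in irisin and 7 of 10 in PBS with either length.

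The known targets of HIF were listed in 2 groups, both written with results of these data known. Of 60 targets 54 were tested, 25 were higher in irisin (46.3%, against 4.2% of all genes tested) and 2 lower (against 3.22%). Their median log2 fold change was 0.45, against -0.01 over all genes tested. These shares and medians are not read as a result, because the targets were listed with this comparison known. Cox4i2, among those called higher, entered the test through its irisin libraries. These targets also answer to other regulators, and HIF binding was not measured.

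In the list of glycolysis and pH control, 18 of 21 genes were tested and 12 were higher in irisin. In edgeR, DESeq2 or limma-voom 0 were lower, with 1 lower at an unadjusted p under 0.05. Of all genes tested, 4.2% were higher and 3.22% lower in edgeR. The list's median log2 fold change was 0.64. Pdk1 encodes a kinase that keeps pyruvate out of mitochondria. It had 84.0, 75.4 and 85.0 CPM in irisin, against 20.6, 17.1 and 12.5 CPM in PBS, a log2 fold change of 2.27 ± 0.15 (adjusted p = 8.86e-07). Slc16a3, the lactate exporter MCT4, averaged 158 ± 12.6 CPM in irisin and 32.6 ± 4.01 CPM in PBS (2.27 ± 0.11, adjusted p = 7.28e-08). Neither gene had an irisin library near a PBS library.

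The called glycolytic enzymes had smaller log2 fold changes than Pdk1 and Slc16a3. Pfkl, a subunit of phosphofructokinase, averaged 535 ± 35.3 CPM in irisin and 229 ± 5.24 CPM in PBS (1.22 ± 0.08, adjusted p = 8.63e-07). Pgk1 averaged 184 ± 7.75 CPM in irisin and 89.8 ± 1.07 CPM in PBS (1.04 ± 0.08, adjusted p = 4.72e-06). Eno1 had a log2 fold change of 0.98 ± 0.08, Pkm of 0.85 ± 0.08, Tpi1 of 0.85 ± 0.08, Ldha of 0.86 ± 0.11, Pgam1 of 0.74 ± 0.09, Aldoa of 0.52 ± 0.08 and Gpi1 of 0.51 ± 0.09. The glucose transporter Slc2a1 was the weakest call, at 65.2 ± 2.13 CPM in irisin and 47.1 ± 5.78 CPM in PBS (0.47 ± 0.11, adjusted p = 0.0245). That call was lost without irisin replicate 2 or 3 or PBS replicate 1 or 2, with log2 fold changes of 0.45, 0.47, 0.37 and 0.50.

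Hk1, Hk2, Pfkp, Pfkfb3, Pfkfb4 and Gapdh did not pass. Hk2, the inducible hexokinase, averaged 103 ± 6.14 CPM in irisin and 114 ± 4.30 CPM in PBS. Gapdh varied widely within groups, with 376, 557 and 556 CPM in irisin and 380.4, 441 and 198 CPM in PBS. Car9, a carbonic anhydrase widely used as a hypoxia marker, had only 2, 2 and 5 counts in irisin and 1, 1 and 0 in PBS and was not tested.

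In the list of other targets, 36 of 39 genes were tested, 13 were higher in irisin and 2 were lower. Of all genes tested, 4.2% were higher and 3.22% lower, and the count of 2 lower is not read as a result. The list's median log2 fold change was 0.32. Cxcl12, a chemokine that retains leukocytes and progenitors, averaged 12493 ± 677 CPM in irisin and 4971 ± 156 CPM in PBS (1.33 ± 0.09, adjusted p = 5.28e-07). The collagen prolyl hydroxylase P4ha2 averaged 812 ± 17.8 CPM in irisin and 345 ± 29.4 CPM in PBS (1.24 ± 0.09, adjusted p = 1.06e-06). Angptl4, an inhibitor of lipoprotein lipase, averaged 366 ± 20.6 CPM in irisin and 156 ± 9.85 CPM in PBS (1.23 ± 0.09, adjusted p = 1.17e-06). All irisin libraries of these 3 genes were above all PBS libraries, and 23.6% of all genes tested had groups without overlap in either direction.

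Several genes of mitochondrial proteins in this list were higher in irisin as well. Bnip3, a mitophagy receptor, averaged 100.1 ± 9.41 CPM in irisin and 40.6 ± 3.71 CPM in PBS (1.30 ± 0.11, adjusted p = 8.33e-06). Fam162a, a mitochondrial protein linked to apoptosis under hypoxia, had a log2 fold change of 1.03 ± 0.09, the mitochondrial adenylate kinase gene Ak4 of 1.56 ± 0.16, and Stc1, a secreted glycoprotein gene, of 1.57 ± 0.15. Mif (0.80 ± 0.08) and P4ha1 (0.59 ± 0.09) were called as well. Kdm3a, Lox and Higd1a were called at log2 fold changes of 0.44, 0.33 and 0.47. Each of the 3 lost its call when any 1 library other than PBS replicate 3 was left out.

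The 2 genes lower in irisin were Hmox1 and Tek. Hmox1, heme oxygenase 1, is also a target of NRF2 and had 371, 454 and 442 CPM in irisin, against 1019, 1234 and 709.7 CPM in PBS (-1.23 ± 0.19, adjusted p = 0.00656). Its PBS libraries varied widely, but all were above the irisin libraries. Tek, the angiopoietin receptor, averaged 22.4 ± 3.81 CPM in irisin and 33.8 ± 3.10 CPM in PBS (-0.59 ± 0.15, adjusted p = 0.0303). Its call was lost without irisin replicate 2 or 3 or PBS replicate 1 or 2, with log2 fold changes of -0.46, -0.66, -0.57 and -0.53.

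Several widely used hypoxia markers were not called by edgeR. Vegfa, the angiogenic growth factor, was low, with 10, 16 and 14 counts in irisin and 19, 20 and 5 in PBS (log2 fold change -0.04 ± 0.44, adjusted p = 0.978). Adm, the vasodilator adrenomedullin, averaged 1439 ± 84.9 CPM in irisin and 1235 ± 149 CPM in PBS (0.22 ± 0.10, adjusted p = 0.251). Ankrd37 averaged 5.46 ± 0.133 CPM in irisin and 2.78 ± 1.17 CPM in PBS (1.00 ± 0.32, adjusted p = 0.0873). Adm and Ankrd37 passed without PBS replicate 3, at log2 fold changes of 0.32 and 1.36. Both also passed in limma-voom with all libraries, at 0.26 for Adm (adjusted p = 0.0400) and 1.25 for Ankrd37 (adjusted p = 0.0176).

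**Figure D3:**
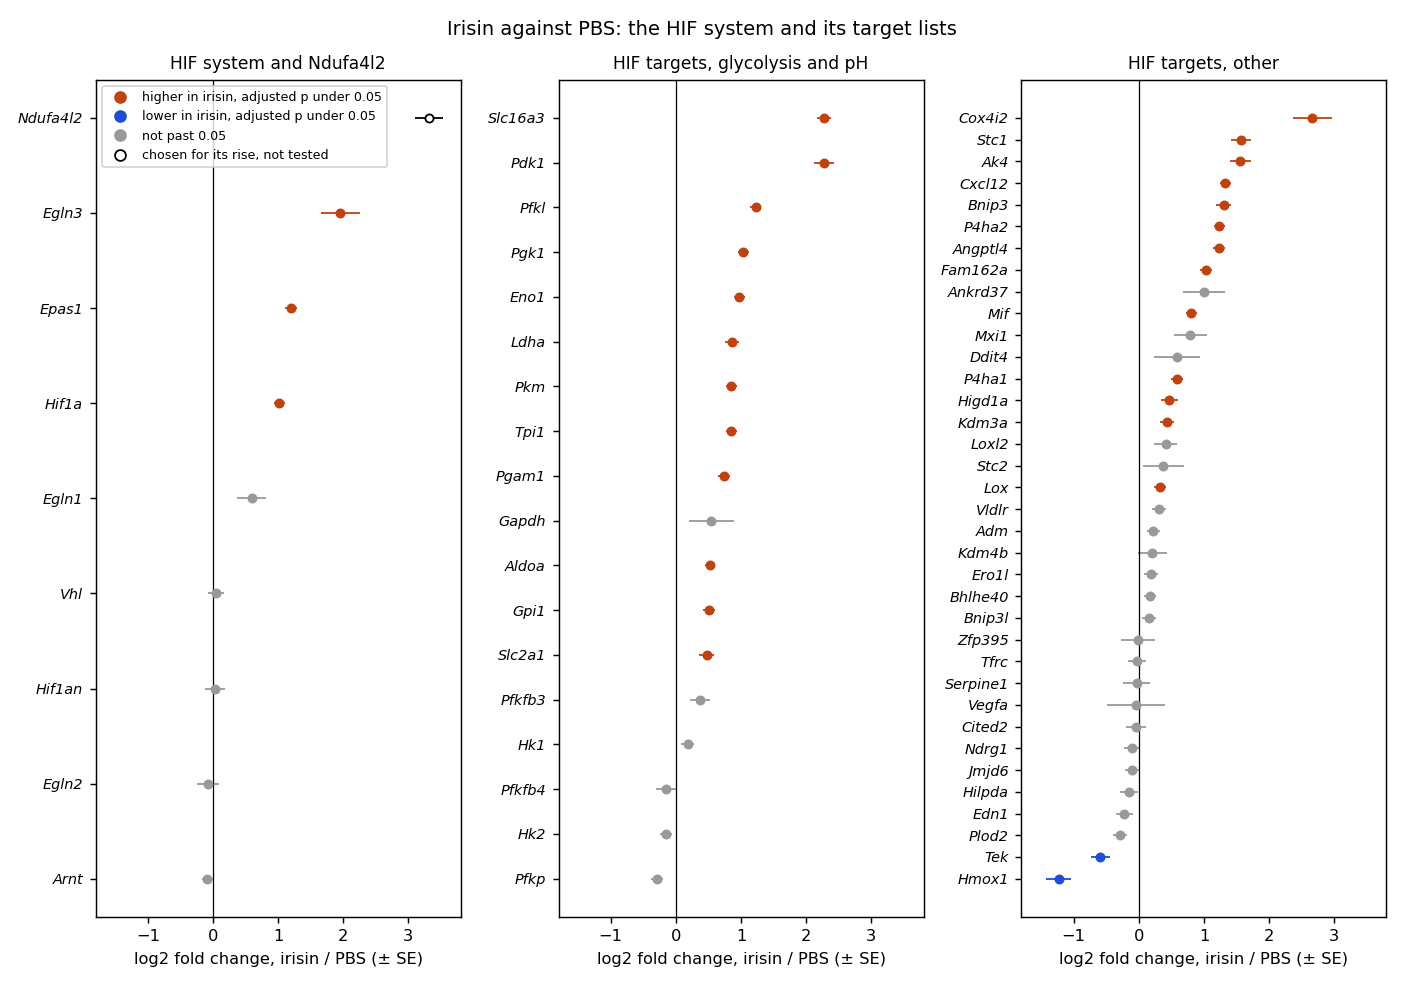
Log2 fold change of irisin over PBS (± SE) for the tested genes of the HIF system, the glycolysis and pH list and the list of other targets. Orange marks genes higher in irisin at an adjusted p under 0.05, blue genes lower, grey genes that did not pass, and the open symbol Ndufa4l2, which was chosen for its rise. In the glycolysis list 12 genes are orange and 0 blue, and in the other list 13 are orange and 2 blue. Of all genes tested, 4.2% were higher and 3.22% lower.

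Fold changes were computed under 18 alternatives, such as other scalings, other tools and each library left out. Hif1a ranged from 0.94 to 1.07 and Epas1 from 1.12 to 1.26 on the log2 scale. The description of Ndufa4l2 ranged from 3.11 to 3.59. Egln3 ranged from 1.71 to 2.27 in the 17 alternatives in which it was tested. Egln1 ranged from 0.44 to 0.75 and passed in none of them.

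**Figure D4:**
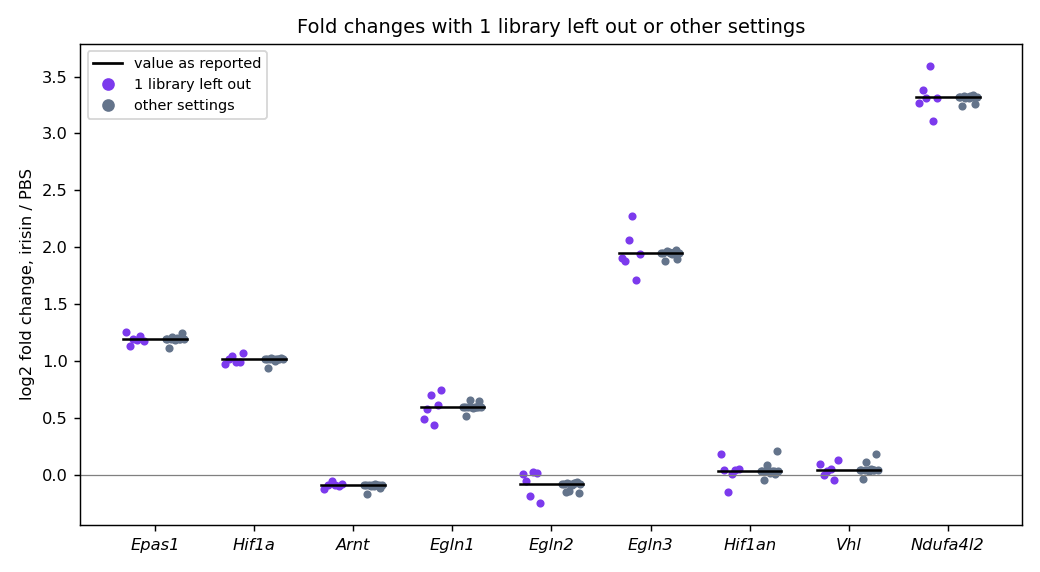
Log2 fold change of irisin over PBS for the 9 tested genes under each alternative. Black bars are the values reported, purple points leave out 1 library each and grey points are other settings. Hif1a, Epas1, Egln3 and Ndufa4l2 stay above 0.9 throughout, while Egln2, Hif1an and Vhl lie on both sides of 0.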

How the data were processed

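Polyadenylated RNA of 3 irisin and 3 PBS libraries was sequenced after lysis in a 96-well plate in TCL buffer and ultra-low-input library construction, per the labels' protocols. Reads went through STAR 2.7.3a and featureCounts with build mm10, per the submitters' processing notes. Which annotation, strand setting and multi-mapping rule were used is not given in the sources. The authors deposited raw counts, whole numbers without normalization, for 55011 gene symbols, of which 31436 had a count.

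Sample titles gave the groups and replicate numbers. In R 4.3.3, edgeR 4.0.16 was run on the counts with TMM factors. Filtering by filterByExpr (count minimum 10) left 12296 genes. Irisin was set against PBS in the quasi-likelihood test with robust dispersions and Benjamini-Hochberg adjustment over all of them and a threshold of 0.05. The standard error of a log2 fold change was its size divided by the square root of the test's F. CPM divide counts by TMM-scaled totals, so that 1 CPM stood on 5.17 to 6.89 counts. Levels per kilobase used GENCODE M21 union exons, matched by symbol for 53009 genes (96.4%). No library repeated another (chi-square per degree of freedom 2.74 to 14.9 within groups).

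The genes and lists were chosen with earlier results of these data known. Named were all 10 genes, up to 6 called genes per list and direction by adjusted p, 11 fixed genes and the 5 genes most like Ndufa4l2, of which 1 is not reported here. Other genes were named after their values were seen. Alternatives covered the scaling (RLE, upper quartile, total counts alone), the tool (DESeq2 1.42.0, or limma-voom from limma 3.58.1 with quality weights), the dispersion (not robust) and the filter (none, or a minimum of 50 counts). Runs without mitochondrial and ribosomal protein genes, with a replicate block, with each library left out, with irisin replicate 1 and PBS replicate 3 left out together, and at an adjusted p of 0.10 were made as well. The test was tried on simulated data first.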

Additional observations from a re-analysis of the deposited data

How the results depend on the processing

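The calls of Hif1a and Epas1 held under all alternatives, as did that of Egln3, except that it was not tested at a count minimum of 50. These runs reuse the same libraries, and under the main filter the entry of Egln3 into the test depended on irisin. They are therefore not read as added support. Of 30 named called genes other than Ndufa4l2, 25 kept their call throughout, 5 lost it in some alternatives and 0 reversed.

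With total counts alone the median gene stood at -0.09 on the log2 scale, against -0.01, and 422 genes were higher and 602 lower (41.2% of calls higher, against 56.6%). Glycolysis genes lower in irisin then numbered 1 (Pfkp), as at an adjusted p of 0.10. Leaving out 1 library gave 336 to 705 genes higher and 238 to 585 lower, with 705 and 585 without PBS replicate 3. The list of other targets then had 10 to 18 higher, against 13 with all libraries, and 1 to 3 lower. Glycolysis genes higher numbered 11 to 12, and complex IV genes higher 1 to 2. Leaving out irisin replicate 1 and PBS replicate 3 together gave 892 higher and 788 lower, 1 regulator higher (Arnt2), 1 glycolysis gene lower (Pfkp) and 2 complex IV genes higher (Cox4i2 and Cox7a2l). There 19 of the other targets were higher and 3 lower, and 13 glycolysis genes were higher, Gapdh among them. At a count minimum of 50 no complex IV gene was called (0), because Cox4i2 was not tested. DESeq2 called 860 genes and limma-voom 1271. The causes of these shifts were not tested. Ratios by longest transcript were chosen after seeing the data.

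Whether replicate numbers pair the samples cannot be decided from deviations around the mean of only 3 libraries per group. Same-numbered deviations correlated at -0.264, 0.197 and -0.201, and not every sample correlated best with its own number. The largest correlation was 0.401, between irisin replicate 1 and PBS replicate 3. With a replicate block 422 genes were higher and 269 lower, Hif1a, Epas1 and Egln3 were still called, 1 of the other targets was lower, and Vegfa stood at 0.026.

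Some genes that did not pass changed sign. With 1 library left out, log2 fold changes ran from -0.25 to 0.028 for Egln2, -0.15 to 0.19 for Hif1an and -0.042 to 0.13 for Vhl. The ranges were -0.029 to 0.048 for Ndufa4, -0.38 to 0.25 for Vegfa and -0.20 to 0.15 for P4htm. With total counts alone the values were -0.048 for Hif1an, -0.035 for Vhl and -0.054 for P4htm. Ndufa4 stood at 0.0037 at a count minimum of 50 and at 0.00027 without mitochondrial and ribosomal protein genes. Without irisin replicate 1 and PBS replicate 3, Hif1an stood at 0.209, Vhl at 0.182 and P4htm at 0.250.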
